A study of Mus musculus with 8 samples.

Results

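The WNT ligands, receptors, antagonists and close effectors described here are 57 of the 19938 genes measured in the series, each with a probe set that names only that gene. They were chosen by symbol, and no filter on low values was applied, so that all 57 were tested. They comprise 19 WNT ligands, 10 Frizzled receptors, 2 LRP co-receptors, 4 R-spondins, 3 LGR receptors, 10 secreted antagonists, 4 feedback targets of the pathway (Axin2, Nkd1, Nkd2 and Sp5) and 4 nuclear effectors (Ctnnb1, Lef1, Tcf7l1 and Tcf7l2). The remaining gene, Fzd10os, is named for the strand opposite Fzd10 and entered through its symbol, with no receptor role given to it here. Tcf7 was not analysed here.

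WNT ligands are secreted, lipid-modified glycoproteins that bind Frizzled receptors together with the co-receptors LRP5 and LRP6, which spares β-catenin from the destruction complex so that it can act with LEF and TCF factors in the nucleus. R-spondins, bound by the receptors LGR4, LGR5 and LGR6, raise the number of Frizzled receptors at the cell surface, whereas secreted antagonists (SFRP and Dickkopf proteins, WIF1, NOTUM) hold the ligands or receptors back. In the mouse uterus the pathway is known for its part in patterning the reproductive tract, in the formation of endometrial glands and in the stromal response at implantation.

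Whole uteri of 4 Foxa2-deleted females (PgrCre/+ Foxa2flox/flox) and 4 control females (Pgr+/+ Foxa2+/+) were each measured on 1 microarray. Pseudopregnancy was induced in every female by a vasectomised male, and tissue was taken on its day 3.5, counted from the plug at day 0.5; ages are not given in the labels. FOXA2 is a transcription factor with a forkhead domain, found in endometrial glands, and Cre was made from 1 Pgr allele, hence in cells that use the progesterone receptor gene. The controls carried no Cre and no floxed allele, so the genotypes differed in Cre, in Pgr copy number and in Foxa2 together. The question put was which transcripts differ between uteri with and without the deletion. Whole tissue gives 1 value per uterus, and fewer cells of a type and less RNA per cell cannot be told apart in it.

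Values are the authors' log2 intensities, whose precision is bounded by having 4 arrays in each group. Foxa2 itself lay at 8.20 to 8.22 in Foxa2-deleted uteri and at 8.61 to 8.82 in controls, lower in every array labelled as deleted; where its probe set lies relative to the floxed exons is not known here. Pgr, the gene that carried Cre, lay at 11.35 to 11.81 in Foxa2-deleted uteri and 11.15 to 11.27 in controls (log2 change 0.37, adjusted p = 0.0428, limma). Its call was lost under repeated quantile normalisation (0.0505) and with the replicate number as a block (0.0777). It was also lost without Foxa2-deleted replicate 1 or 4 and without any 1 control (0.105 at most). The stromal gene Hoxa10 averaged 10.64 in Foxa2-deleted uteri and 10.91 in controls, and the smooth muscle gene Acta2 averaged 13.25 in Foxa2-deleted uteri and 13.12 in controls. The other stromal markers Hoxa11, Hand2, Nr2f2, Pdgfra and Vim had log2 changes of -0.63, -0.41, -0.415, -0.32 and -0.16, and Dcn one of 0.065. Of the stromal markers Nr2f2 alone passed (adjusted p = 0.0341, limma). Among lists of cell type markers, 4 of 7 gland markers other than Foxa2 fell, 5 of 8 pan-epithelial markers rose, 4 of 6 endothelial markers fell, 1 of 7 stromal markers fell and 1 of 6 smooth muscle markers rose. No marker of ovary or fat passed out of 5 measured, and the oviduct gene on that list, Ovgp1, was not measured. The list means were 8.36 to 8.86 in Foxa2-deleted uteri and 7.91 to 8.62 in controls. The fat genes Adipoq and Plin1 had log2 changes of 1.105 and 0.77 (adjusted p = 0.146 and 0.178, limma), with overlap between the groups. Of 8 leukocyte markers, 1 rose and 3 fell.

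Calls rest on an adjusted p under 0.05 from limma, fitted to all 19938 genes. Of the 57 WNT members, 9 rose and 2 fell in Foxa2-deleted uteri, and 46 did not pass. The 9 higher members make up 15.8% of the set, where 4.5% of all genes rose; the 2 lower members make up 3.51%, where 6.58% of all genes fell. In either direction 19.3% of the members were called, against 11.1% of all genes. Without control replicates 1 to 4 in turn, 10.5%, 3.51%, 3.51% and 1.75% of members passed, against 5.57%, 2.79%, 3.1% and 2.79% of all genes. Without Foxa2-deleted replicates 1 to 4, the shares were 8.77%, 28.1%, 19.3% and 24.6% of members and 5.36%, 14.8%, 9.37% and 15.3% of all genes. The 4 values of Foxa2-deleted uteri lay above all 4 control values in 12 members (21.1%, against 9.55% of all genes) and below them in 4 (7.02%, against 11.6%). The median log2 change was 0.08 over the members and 0.0075 over all genes. With the lower 50% of genes by mean level left out, it was -0.035 over the 30 members left and -0.04 over the genes left. In that setting 16.7% of the members and 5.35% of the genes rose. Without such a filter, 898 of all genes rose and 1311 fell. With each array centred on its median these were 1082 and 982, and the members then gave 10 higher and 2 lower.

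**Figure D1:**
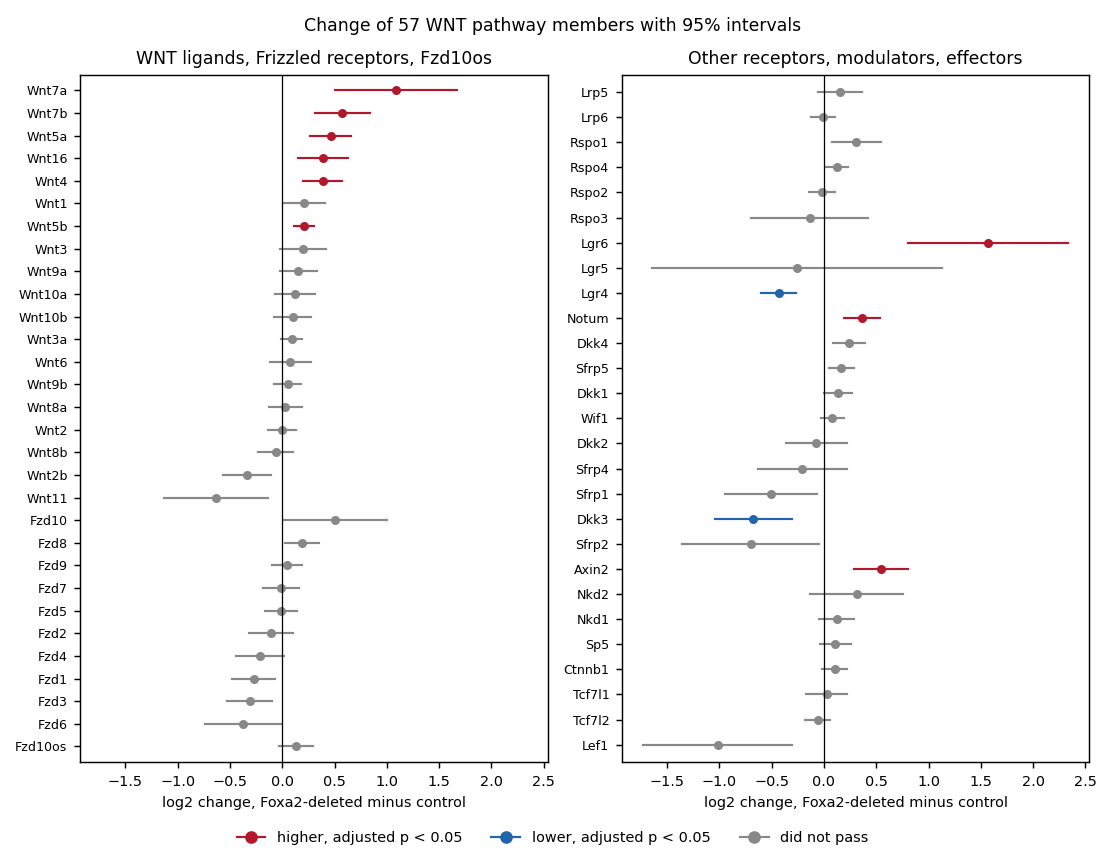
Log2 change (Foxa2-deleted minus control, horizontal axis) of the 57 members with 95% intervals of the fit, ordered by role and size, with 4 uteri per group. Wnt7a at 1.09 and Lgr6 at 1.57 have the largest called increases, Lgr4 and Dkk3 are the called decreases, and Lgr5 has an interval from -1.64 to 1.13.

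The ligands moved in 1 direction as far as they were called. Of 19 ligand genes, 6 rose (31.6%) and none fell in the limma fit; at an unadjusted p under 0.05, 7 were higher and 2, Wnt2b and Wnt11, lower. At that unadjusted threshold 14.5% of all genes were higher and 17% lower, 31.5% in all. The 6 were Wnt7a, Wnt7b, Wnt5a, Wnt4, Wnt16 and Wnt5b, with log2 changes from 0.21 to 1.09. Of these, Wnt7a, Wnt7b and Wnt16 lay in the lower 50% of all genes by mean level. A positive change was seen in 15 of the 19 (78.9%, against 52.4% of all genes), with a median of 0.13 that is mostly made of changes below the threshold.

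Wnt7a encodes a ligand of the uterine epithelium that is needed for normal patterning of the tract and for gland formation. It had 9.03, 8.48, 8.92 and 9.94 in Foxa2-deleted replicates 1 to 4, against 8.06, 7.94, 8.10 and 7.91 in control replicates 1 to 4. The groups did not overlap, and replicate 4 stood highest and replicate 2 nearest the controls. The gene rose by 1.09 on the log2 scale, or 2.13-fold (SE 0.26, adjusted p = 0.0325, limma).

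Wnt7b, its close relative and likewise known from the luminal epithelium, had 8.32, 7.95, 8.56 and 8.14 in Foxa2-deleted uteri, against 7.67, 7.75, 7.58 and 7.67 in controls. Here replicate 3 was the highest and replicate 2 again the lowest of the deleted uteri, all of which lay above the controls. The log2 change was 0.57 (SE 0.12, adjusted p = 0.0211, limma). Markers of epithelium differed in the same direction: the mean over 8 pan-epithelial genes was 10.54 to 11.56 in Foxa2-deleted uteri and 9.98 to 10.16 in controls, and that over 3 measured luminal markers, of which 2 rose and Ihh fell, was 9.70 to 10.54 in Foxa2-deleted uteri and 8.26 to 8.42 in controls. Their part in the changes of Wnt7a and Wnt7b was not tested.

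Wnt5a, a ligand of the stroma that mostly signals without β-catenin, had 11.28, 10.85, 11 and 11.05 in Foxa2-deleted uteri, against 10.50, 10.65, 10.61 and 10.56 in controls. All deleted uteri exceeded all controls, replicate 1 by the most. Its log2 change was 0.46, or 1.38-fold (SE 0.09, adjusted p = 0.016, limma).

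Wnt5b, the paralogue of Wnt5a, showed a smaller shift with little spread. Its values were 8.92, 8.91, 8.86 and 8.87 in Foxa2-deleted uteri, against 8.73, 8.63, 8.69 and 8.67 in controls. No value of one group reached the other, and the log2 change was 0.21 (SE 0.04, adjusted p = 0.0203, limma).

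Wnt4, a stromal ligand known for its role in decidualisation, had 8.97, 8.87, 9.24 and 9.17 in Foxa2-deleted uteri, against 8.68, 8.67, 8.71 and 8.65 in controls. The controls spanned a narrow range and all deleted uteri lay above it, giving a log2 change of 0.39 (SE 0.08, adjusted p = 0.0228, limma). Wnt4 was the only member with a second probe set naming it alone. That probe set had 9.01, 8.47, 9.16 and 8.90 in Foxa2-deleted uteri, against 8.31, 8.27, 8.23 and 8.25 in controls. It differed in the same direction by 0.62, also without overlap between the groups.

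Wnt16, a ligand described in the uterine stroma, had 8.76, 8.4, 8.75 and 8.88 in Foxa2-deleted uteri, against 8.36, 8.42, 8.30 and 8.15 in controls. Replicate 2 of the deleted uteri fell within the range of the controls, and the other deleted uteri lay above it. The log2 change of 0.39 (SE 0.10, adjusted p = 0.0464, limma) was the called change nearest the threshold among the members, with Dkk4 (adjusted p = 0.053) just beyond it. The stromal list, by comparison, had means of 10.96 to 11.51 in Foxa2-deleted uteri and 11.51 to 11.58 in controls, and its part in the changes of Wnt5a, Wnt4 and Wnt16 was not tested.

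With 1 uterus left out, the call of Wnt5a was lost without control replicate 4 (adjusted p = 0.0539), and that of Wnt5b without Foxa2-deleted replicate 1 or control replicate 2, 3 or 4 (up to 0.0692). The calls of Wnt7a and Wnt7b were lost without Foxa2-deleted replicate 1 or any 1 control (up to 0.0934 and 0.0677), that of Wnt4 without any 1 control (up to 0.0727) and that of Wnt16 without any 1 uterus other than Foxa2-deleted replicate 2 (up to 0.127), while all 6 kept their direction.

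The promoter of Wnt5b is shown because 1 of its windows holds the only match to a TCF/LEF motif among the called members with a window. Windows are the 250 bases before a gene's start in RefSeq, on GRCm38.p6, and were found for 38 of the 57 members and for 7 of the 11 called ones. The TCF/LEF letters searched were CTTTG followed by AT, AA, TT or TA, on both strands, of which the third ends in letters that can begin the forkhead motifs TGTTTAC or TGTTTGC. The window lies on the minus strand at chr6:119449387-119449636, with the match in capitals, 71 bases before the start.
Wnt5b: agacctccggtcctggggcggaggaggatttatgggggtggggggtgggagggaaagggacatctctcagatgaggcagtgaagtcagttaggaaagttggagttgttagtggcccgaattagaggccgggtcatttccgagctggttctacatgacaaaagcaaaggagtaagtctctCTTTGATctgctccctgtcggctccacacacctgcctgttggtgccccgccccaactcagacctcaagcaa
TCF/LEF matches were found in 15.2% of the 46 windows of members and in 14.8% of all 32851 windows. The forkhead letters, searched in the same way, were found in 10.9% of member windows and 7.29% of all windows, namely in Fzd10, Lef1, Tcf7l2 and Wnt1, and in none of the 9 windows of called members. A match is a description of letters and not a binding site.

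Among ligands that did not pass, Wnt11 and Wnt2b had the lowest changes. Wnt11, a ligand of uterine epithelium, had 8.02, 9.18, 8.21 and 8.30 in Foxa2-deleted uteri, against 9.04, 9.04, 9.18 and 8.98 in controls. Replicates 1, 3 and 4 of the deleted uteri lay below every control and replicate 2 matched the highest control, so that the change of -0.63 (SE 0.22) had an adjusted p of 0.0898 in limma, and it passed only with Foxa2-deleted replicate 2 left out (adjusted p = 5.8e-04).

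Wnt2b had a change of -0.34 (SE 0.10, adjusted p = 0.0637), with 8.51, 8.88, 8.45 and 8.63 in Foxa2-deleted uteri, against 9.11, 9.0, 8.89 and 8.82 in controls. Only replicate 2 of the deleted uteri overlapped the controls, and without it Wnt2b passed, at -0.42 (adjusted p = 0.0128). The other 11 ligands that did not pass had log2 changes from -0.06 for Wnt8b to 0.21 for Wnt1, the smallest in size being that of Wnt2.

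**Figure D2:**
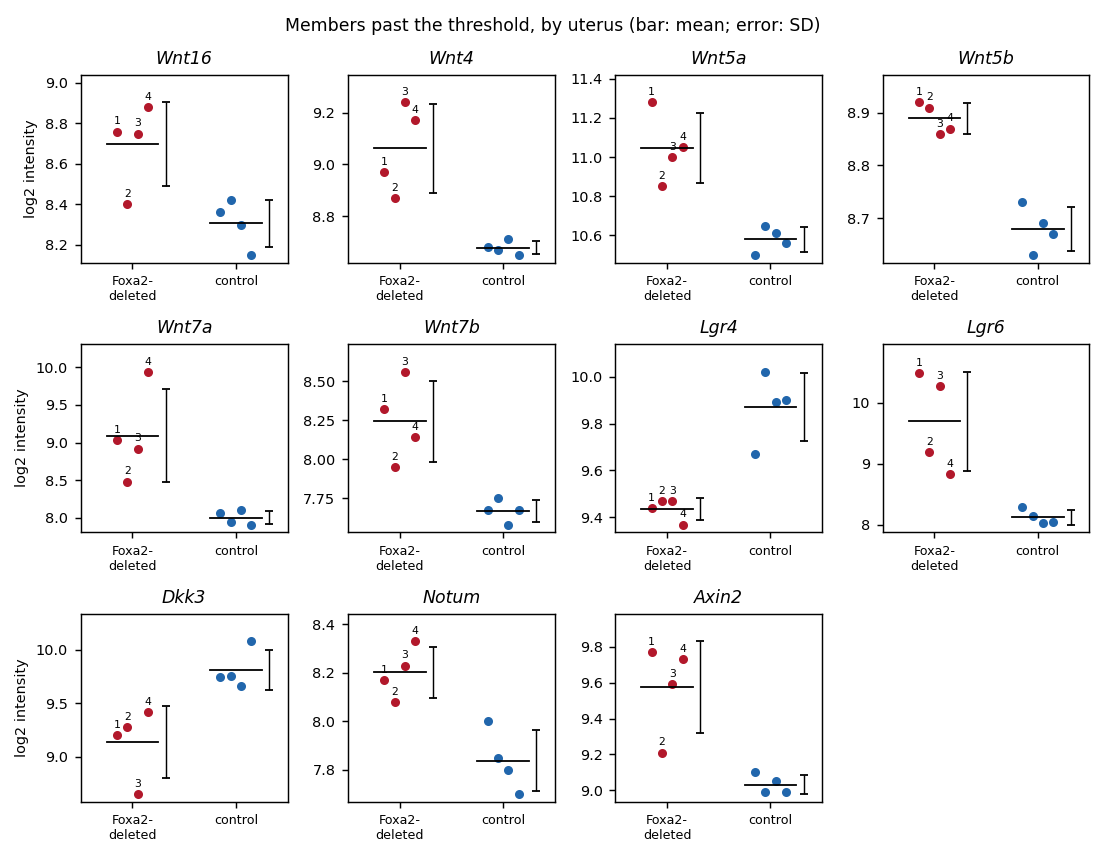
Log2 intensity of the 11 members past the threshold in each uterus, Foxa2-deleted left (numbered by replicate) and control right, with the mean as a bar and the SD as an error bar; each panel has its own vertical axis. The groups do not overlap except in Wnt16, and Foxa2-deleted replicate 2 lies nearest the controls in 8 of the 11 panels.

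Of the 10 Frizzled genes, which encode the ligands' receptors, none passed in limma. At an unadjusted p under 0.05, 2 were higher (Fzd8 and Fzd10) and 3 lower (Fzd1, Fzd3 and Fzd6), where 14.5% and 17% of all genes were. With array weights in limma Fzd3 passed (adjusted p = 0.037). Without Foxa2-deleted replicate 2, Fzd1 and Fzd4 passed as lower (adjusted p = 0.0339 and 0.0291, limma). Without Foxa2-deleted replicate 4, Fzd3 and Fzd6 passed as lower (adjusted p = 0.0292 and 0.0377) and Fzd10 as higher (0.0313). The median log2 change was -0.06, with a range of -0.38 to 0.51.

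Fzd6 had 9.86, 10.45, 10.01 and 10.66 in Foxa2-deleted uteri, against 10.57, 10.67, 10.70 and 10.55 in controls. Replicates 1 and 3 of the deleted uteri lay well below the controls, replicate 2 just below and replicate 4 among them, giving a log2 change of -0.38 with a 95% interval from -0.74 to -0.01 (adjusted p = 0.147, limma).

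Fzd3 had 8.19, 8.48, 8.16 and 8.56 in Foxa2-deleted uteri, against 8.60, 8.72, 8.73 and 8.59 in controls. The groups did not overlap, though by a narrow margin at replicate 4 (log2 change -0.31, SE 0.10, adjusted p = 0.0681). Fzd10 had 8.39, 8.26, 8.38 and 9.37 in Foxa2-deleted uteri, against 8.15, 8.12, 8.11 and 8.0 in controls. All deleted uteri were above all controls, and replicate 4 exceeded the other deleted uteri by far (log2 change 0.51, SE 0.22, adjusted p = 0.151). Without that uterus the change of Fzd10 was 0.25 and passed, as given above.

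The LRP co-receptor genes encode proteins that take up the signal with Frizzled. The change of Lrp6 was -0.01 with a 95% interval from -0.13 to 0.11, and that of Lrp5 was 0.15 with an interval from -0.06 to 0.36. Neither passed in limma, and neither had an unadjusted p under 0.05.

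The 3 LGR receptor genes, which encode receptors of R-spondins, took different courses. Lgr6 rose, Lgr4 fell and Lgr5 differed widely among the deleted uteri. Lgr6 had 10.49, 9.19, 10.27 and 8.83 in Foxa2-deleted uteri, against 8.29, 8.15, 8.03 and 8.04 in controls. Every deleted uterus exceeded every control, replicates 1 and 3 by more than replicates 2 and 4. The log2 change of 1.57, or 2.96-fold (SE 0.34, adjusted p = 0.0246, limma), was the largest of the 57 members in size.

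Lgr4, the receptor of this family with the widest known expression, had 9.44, 9.47, 9.47 and 9.37 in Foxa2-deleted uteri, against 9.67, 10.02, 9.89 and 9.90 in controls. The deleted uteri lay close together and all below the controls. The gene fell by 0.43 on the log2 scale, or 1.35-fold (SE 0.07, adjusted p = 0.0122, limma), the smallest adjusted p among the members, and it alone of the 11 kept its call without any 1 uterus (adjusted p up to 0.0468). Lgr6 did not pass once any 1 control was set aside, its adjusted p then reaching 0.0758.

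Lgr5, a receptor known from stem cells of several epithelia and from the luminal epithelium of the uterus, had 7.38, 7.86, 7.22 and 10.29 in Foxa2-deleted uteri, against 8.34, 8.31, 8.10 and 9.03 in controls. Replicates 1 to 3 of the deleted uteri lay below every control and replicate 4 above every control. The fitted change was -0.26 with a 95% interval from -1.64 to 1.13 (adjusted p = 0.797, limma). Without Foxa2-deleted replicate 4 it was -0.96 (adjusted p = 0.0355), while without replicate 1 or 3 the sign turned, at 0.01 and 0.06.

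The windows before Lgr6 and Lgr4 are printed as the pair of paralogues called in opposite directions. That of Lgr6, on the minus strand at chr1:135105277-135105526, has 65.2% G and C and 16 CpG dinucleotides. That of Lgr4, on the plus strand at chr2:109917397-109917646, has 55.6% G and C and 10 CpG, where the median was 66.6% and 20.5 over the windows of members and 52.4% and 6 over all windows. Neither holds the TCF/LEF or forkhead letters, hence no capitals.
Lgr6: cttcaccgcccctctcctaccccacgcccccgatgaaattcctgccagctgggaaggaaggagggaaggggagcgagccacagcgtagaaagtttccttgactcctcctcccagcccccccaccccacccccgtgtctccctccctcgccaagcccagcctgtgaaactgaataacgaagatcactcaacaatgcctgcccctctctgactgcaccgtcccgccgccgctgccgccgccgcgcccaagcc
Lgr4: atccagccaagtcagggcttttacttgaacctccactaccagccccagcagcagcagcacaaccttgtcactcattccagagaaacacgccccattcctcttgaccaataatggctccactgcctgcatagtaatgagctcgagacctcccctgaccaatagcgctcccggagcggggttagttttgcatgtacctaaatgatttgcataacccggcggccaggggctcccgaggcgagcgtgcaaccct
No match says only that these letters are not in these windows.

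Of the 4 R-spondin genes, the secreted ligands of LGR receptors, none passed in limma, and 2 (Rspo1 and Rspo4) were higher at an unadjusted p under 0.05, as were 14.5% of all genes. Rspo1 had 10.12, 9.88, 9.62 and 9.84 in Foxa2-deleted uteri, against 9.67, 9.64, 9.49 and 9.43 in controls. Replicate 3 of the deleted uteri lay within the controls and the rest above (log2 change 0.31, SE 0.10, adjusted p = 0.0852). Rspo1 passed without that uterus (adjusted p = 0.0324) and with array weights.

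Rspo3 had 10.07, 9.69, 9.10 and 10.45 in Foxa2-deleted uteri, against 10.15, 9.81, 9.95 and 9.95 in controls. The deleted uteri lay on both sides of the controls, and the change of -0.14 had a 95% interval from -0.70 to 0.42 (adjusted p = 0.725). Rspo4 had a change of 0.12 and Rspo2 of -0.02.

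Among the 10 secreted antagonists, Notum rose, Dkk3 fell and 8 did not pass. NOTUM is an enzyme that strips the lipid from WNT ligands and is itself a known target of the pathway. Its gene had 8.17, 8.08, 8.23 and 8.33 in Foxa2-deleted uteri, against 8.0, 7.85, 7.80 and 7.70 in controls. The groups did not overlap, although control replicate 1 came within a short distance of the deleted uteri. The log2 change was 0.36 (SE 0.08, adjusted p = 0.023, limma).

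Dkk3 encodes the divergent member of the Dickkopf family, whose effect on WNT signalling is less settled than that of the others. It had 9.20, 9.28, 8.65 and 9.42 in Foxa2-deleted uteri, against 9.75, 9.76, 9.66 and 10.08 in controls. All deleted uteri lay below the controls, replicate 3 by the most, and the gene fell by 0.68 on the log2 scale, or 1.597-fold (SE 0.16, adjusted p = 0.0339, limma). Notum did not pass once control replicate 2, 3 or 4 was set aside (0.0716 at most), nor Dkk3 once Foxa2-deleted replicate 1 or any 1 control was (0.0975 at most, limma).

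Of the other Dickkopf genes, Dkk4 had 7.56, 7.63, 7.63 and 7.55 in Foxa2-deleted uteri, against 7.50, 7.31, 7.19 and 7.40 in controls. It was higher without overlap and just missed the threshold (log2 change 0.24, SE 0.07, adjusted p = 0.053), and passed with arrays centred on their medians (0.0437), without the dimmest 25% of genes (0.047) and without control replicate 1 (0.0423). Dkk1, an inhibitor that binds LRP5 and LRP6 and is known from decidualising stroma, had 7.88, 8.11, 8.01 and 7.93 in Foxa2-deleted uteri, against 7.89, 7.80, 7.89 and 7.82 in controls. The groups overlapped (log2 change 0.13, SE 0.06, adjusted p = 0.159), as they did for Dkk2, whose change was -0.07.

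The 4 SFRP genes encode decoys with a Frizzled-like domain. None passed in limma, while at an unadjusted p under 0.05 Sfrp5 was higher and Sfrp1 and Sfrp2 lower, a threshold that 31.5% of all genes passed. Sfrp2 had 10.23, 11.33, 10.09 and 11.38 in Foxa2-deleted uteri, against 11.45, 11.46, 11.43 and 11.50 in controls. The controls lay within 0.07 of each other; replicates 2 and 4 of the deleted uteri were just below them and replicates 1 and 3 far below (log2 change -0.70, SE 0.29, adjusted p = 0.135).

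Sfrp4 had 11.28, 11.07, 10.60 and 10.42 in Foxa2-deleted uteri, against 11.06, 11.06, 10.79 and 11.29 in controls. Replicates 1 and 2 of the deleted uteri lay within the range of the controls and replicates 3 and 4 below it, with a change of -0.21 and a 95% interval from -0.63 to 0.22 (adjusted p = 0.47). Sfrp1 had a change of -0.51 (SE 0.19, adjusted p = 0.118) and Sfrp5 of 0.17 (SE 0.05, adjusted p = 0.077). Wif1, which encodes a binder of WNT ligands, had 7.73, 7.77, 7.64 and 7.70 in Foxa2-deleted uteri, against 7.68, 7.63, 7.56 and 7.65 in controls. Replicate 3 of the deleted uteri lay within the range of the controls and the others just above it, and the change of 0.08 had a 95% interval from -0.03 to 0.19 (adjusted p = 0.279).

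Axin2 encodes a scaffold of the destruction complex and is the target most often used to read β-catenin signalling. It had 9.77, 9.21, 9.59 and 9.73 in Foxa2-deleted uteri, against 9.10, 8.99, 9.05 and 8.99 in controls. Every deleted uterus was above every control, and replicate 2 was the nearest to them. Axin2 rose by 0.54 on the log2 scale, or 1.46-fold (SE 0.11, adjusted p = 0.0228, limma), and did not pass once Foxa2-deleted replicate 1 or control replicate 2, 3 or 4 was set aside (0.0727 at most).

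The window before Axin2 is shown since this gene serves as the pathway's readout. It lies on the plus strand at chr11:108920099-108920348, has 69.2% G and C and 24 CpG, and holds none of the TCF/LEF or forkhead letters.
Axin2: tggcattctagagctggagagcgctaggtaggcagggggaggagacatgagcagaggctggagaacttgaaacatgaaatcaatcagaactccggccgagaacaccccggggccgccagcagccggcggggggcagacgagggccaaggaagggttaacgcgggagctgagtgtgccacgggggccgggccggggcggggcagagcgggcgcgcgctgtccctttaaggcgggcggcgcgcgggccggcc
Other parts of the gene were not searched.

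The other feedback targets did not pass. Nkd2, whose product binds Dishevelled, had 9.19, 9.12, 8.72 and 9.84 in Foxa2-deleted uteri, against 9.0, 8.89, 8.88 and 8.85 in controls. Replicate 4 stood above and replicate 3 below every control (log2 change 0.31, SE 0.20, adjusted p = 0.301). Its change was 0.48 without replicate 3 and 0.10 without replicate 4, and passed in neither case. Its paralogue Nkd1 had a change of 0.12 (95% interval -0.05 to 0.29), and Sp5, a transcription factor gene switched on by WNT signals, one of 0.11 (95% interval -0.03 to 0.25).

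None of the 4 nuclear effector genes passed in limma, and Lef1 alone was lower at an unadjusted p under 0.05. Lef1 encodes a DNA-binding partner of β-catenin. It had 8.01, 9.61, 8.04 and 8.78 in Foxa2-deleted uteri, against 9.61, 9.61, 9.59 and 9.70 in controls. Replicate 2 of the deleted uteri equalled the controls and the remaining deleted uteri lay below all of them. The log2 change was -1.02, or 2.02-fold lower (SE 0.31, adjusted p = 0.0687), and it passed without Foxa2-deleted replicate 2, at -1.35 (adjusted p = 0.0026), and with array weights.

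Ctnnb1, the gene of β-catenin, had 12.18, 12.17, 12.36 and 12.29 in Foxa2-deleted uteri, against 12.14, 12.16, 12.15 and 12.14 in controls. The deleted uteri lay above the controls by a small amount (log2 change 0.10, 95% interval -0.02 to 0.22, adjusted p = 0.214, limma). The β-catenin partners Tcf7l1 and Tcf7l2 had changes of 0.03 (95% interval -0.17 to 0.22) and -0.06 (95% interval -0.18 to 0.06). Fzd10os, outside these roles, had a change of 0.14 (adjusted p = 0.228).

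The members differed more among Foxa2-deleted uteri than among controls. The distance between the lowest and the highest uterus had a median of 0.34 in Foxa2-deleted uteri and 0.17 in controls over the 57 members, and over all genes of 0.23 in Foxa2-deleted uteri and 0.16 in controls. It exceeded 0.7 in Foxa2-deleted uteri in 13 members (22.8%, against 8.32% of all genes) and in controls in 1, Lgr5. This limit was set after the values were seen.

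Among those 13, Lef1, Sfrp2, Fzd6, Sfrp1, Wnt11, Lgr5 and Dkk3 had replicates 1 and 3 as the lowest of the deleted uteri, while Lgr6 had them as the highest. Replicate 4 was the highest in Wnt7a, Lgr5, Fzd10, Nkd2, Rspo3, Sfrp2, Fzd6 and Dkk3 and the lowest in Lgr6 and Sfrp4. Over all 57 members, replicate 2 was the deleted uterus nearest the control mean in 22 (38.6%, against 31.4% of all genes). It was nearest in 8 of the 11 called members, and the share over all called genes was not computed. Replicate 4 was nearest in 31.6% of members and 31.9% of all genes. Replicate 3 was farthest in 29.8% of members and 39.4% of all genes.

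Marker lists also differed between these uteri. The stromal mean was 11.26, 11.51, 10.96 and 11.24 in Foxa2-deleted replicates 1 to 4, against 11.51 to 11.58 in controls. The endothelial mean was 10.07, 10.46, 9.71 and 10.25 in the deleted uteri, against 10.77 to 10.85 in controls. The gland mean, leaving out Foxa2, was 7.02, 7.01, 7.29 and 6.97 in the deleted uteri, against 8.37 to 9.07 in controls. The part of these lists in the uneven values of Lef1, Sfrp2, Fzd6, Wnt11, Lgr5 and the other members was not tested.

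**Figure D3:**
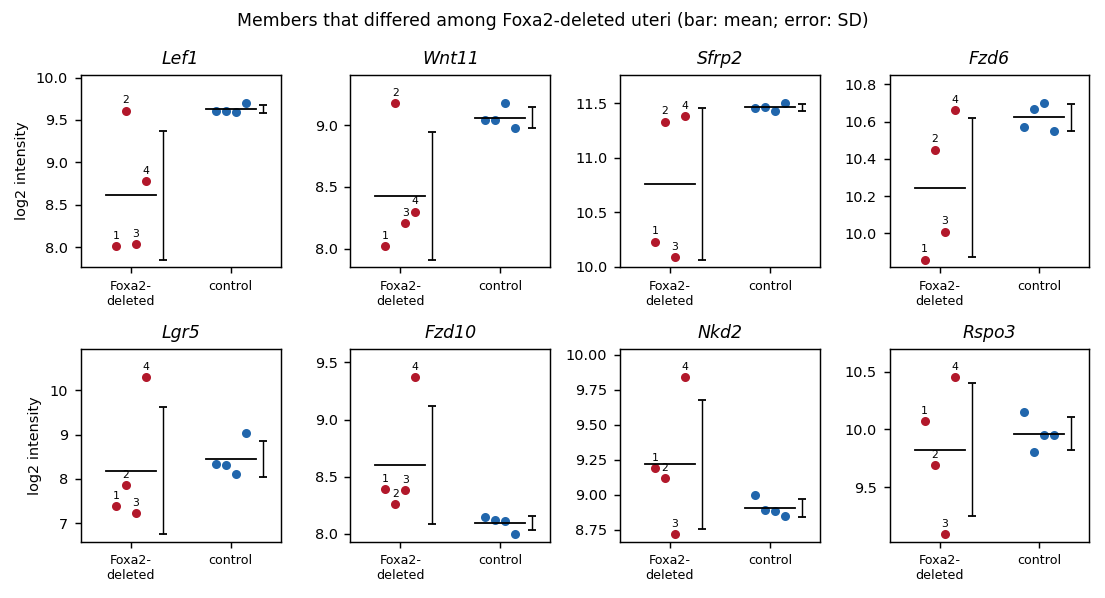
Log2 intensity of 8 members in each uterus, chosen after their values were seen, with Foxa2-deleted left (numbered by replicate) and control right, the mean as a bar and the SD as an error bar. In the upper row replicates 1 and 3 are low in all 4 genes; in the lower row replicate 4 is the highest, as with Lgr5 at 10.29.

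**Figure D4:**
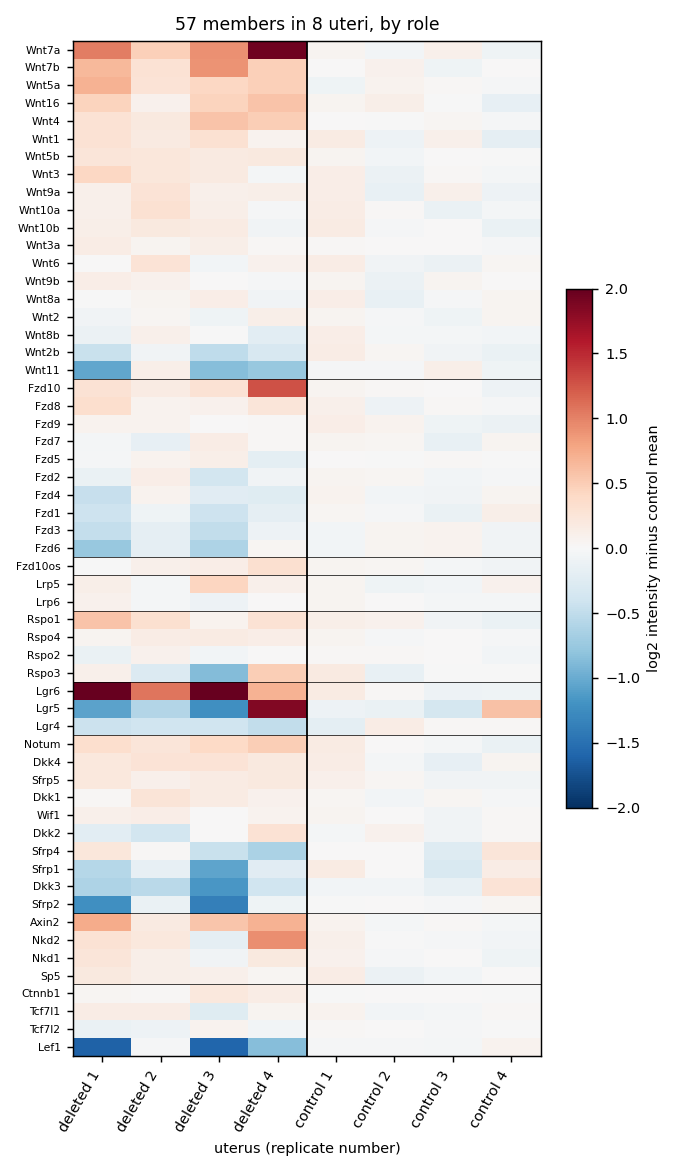
Log2 intensity minus the control mean (colour, limited to -2 and 2) of the 57 members (rows, by role) in the 4 Foxa2-deleted uteri (left) and the 4 control uteri (right). The control columns are nearly blank except for Lgr5 in replicate 4, and the deleted columns differ among themselves, Lef1 being low in replicates 1 and 3 and level with the controls in replicate 2.

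Beyond the members, 71 of 72 other genes of the pathway on a textbook list were measured, of which 4 rose (5.63%), 7 fell (9.86%) and 60 did not pass. These shares lie near those of all genes, 4.5% and 6.58%, and the median change was 0.03. Neither of the genes needed for ligand secretion, Porcn and Wls, passed, with log2 changes of 0.06 each, and neither had an unadjusted p under 0.05.

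Of 13 co-receptors and genes of signalling without β-catenin, Ror2, which encodes a receptor of WNT5A, rose and none fell. It had 10.39, 10.23, 10.26 and 10.38 in Foxa2-deleted uteri, at a mean of 10.31 ± 0.08, against 9.99 ± 0.05 in controls (SD, n = 4 each). Its log2 change of 0.32 (SE 0.05, adjusted p = 0.0122, limma) kept its call without any 1 uterus.

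Of 14 other surface and secreted modulators, 2 rose and 1 fell. The cell surface proteoglycan genes Gpc4 and Gpc3 went opposite ways, with log2 changes of 0.65 (SE 0.12, adjusted p = 0.0163) and -1.36 (SE 0.30, adjusted p = 0.0269). Gpc3 had 8.72, 10.11, 8.68 and 9.76 in Foxa2-deleted uteri, low in replicates 1 and 3, against 10.68 ± 0.07 in controls (SD, n = 4). Tpbg, an inhibitor of WNT signalling at the membrane, rose by 0.56 (SE 0.11, adjusted p = 0.0212).

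Of 18 genes of the destruction complex and its regulators, 3 fell and none rose. At an unadjusted p under 0.05, 2 were higher and 6 lower, where 14.5% of all genes were higher and 17% lower. The Dishevelled-binding gene Dact2 fell by 0.57 (SE 0.10, adjusted p = 0.0122), Amer1, which encodes a partner of APC, by 0.32 (SE 0.08, adjusted p = 0.0428) and Tnks2, a tankyrase that marks axin for breakdown, by 0.19 (SE 0.05, adjusted p = 0.0336). The call of Amer1 was lost under each of 3 other scalings (adjusted p up to 0.0695) and that of Tnks2 under 2 of them (up to 0.0617).

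Of 13 nuclear cofactors, 2 fell and 1 rose. Tle1 and Tle4, co-repressors that bind TCF factors, fell by 0.62 (SE 0.10, adjusted p = 0.0087) and 0.46 (SE 0.08, adjusted p = 0.0142), and Bcl9, a co-activator of β-catenin, rose by 0.65 (SE 0.15, adjusted p = 0.0315). Of 11 genes listed as other targets, 10 did not pass and none rose. Ndp, which alone fell, encodes the Frizzled-4 ligand norrin and is not read as a pathway target here. Its log2 change was -1.3925 (SE 0.37, adjusted p = 0.0466, limma). The call of Ndp was lost with quantile normalisation and cyclic loess (adjusted p up to 0.0558) and with a variance trend (0.054). Ccnd1 and Myc had changes of 0.21 and -0.70 and did not pass (adjusted p = 0.156 and 0.102).

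The replicate number as a block cost Bcl9, Gpc3, Amer1, Tnks2 and Ndp their calls (adjusted p = 0.0596, 0.0522, 0.0931, 0.0721 and 0.0596, limma). With 1 uterus left out, Dact2, Tle1 and Ror2 kept their calls throughout. Those of Gpc4, Tpbg, Tle4, Bcl9, Gpc3, Amer1, Tnks2 and Ndp were lost without control replicate 2 and without control replicate 4, with adjusted p up to 0.119, and all but that of Tle4 also without control replicate 3. Control replicate 1 mattered for Tpbg, Bcl9, Gpc3, Amer1, Tnks2 and Ndp, Foxa2-deleted replicate 1 for Bcl9, Gpc3, Amer1, Tnks2 and Ndp, and Foxa2-deleted replicate 3 for Tnks2 and Ndp.

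**Figure D5:**
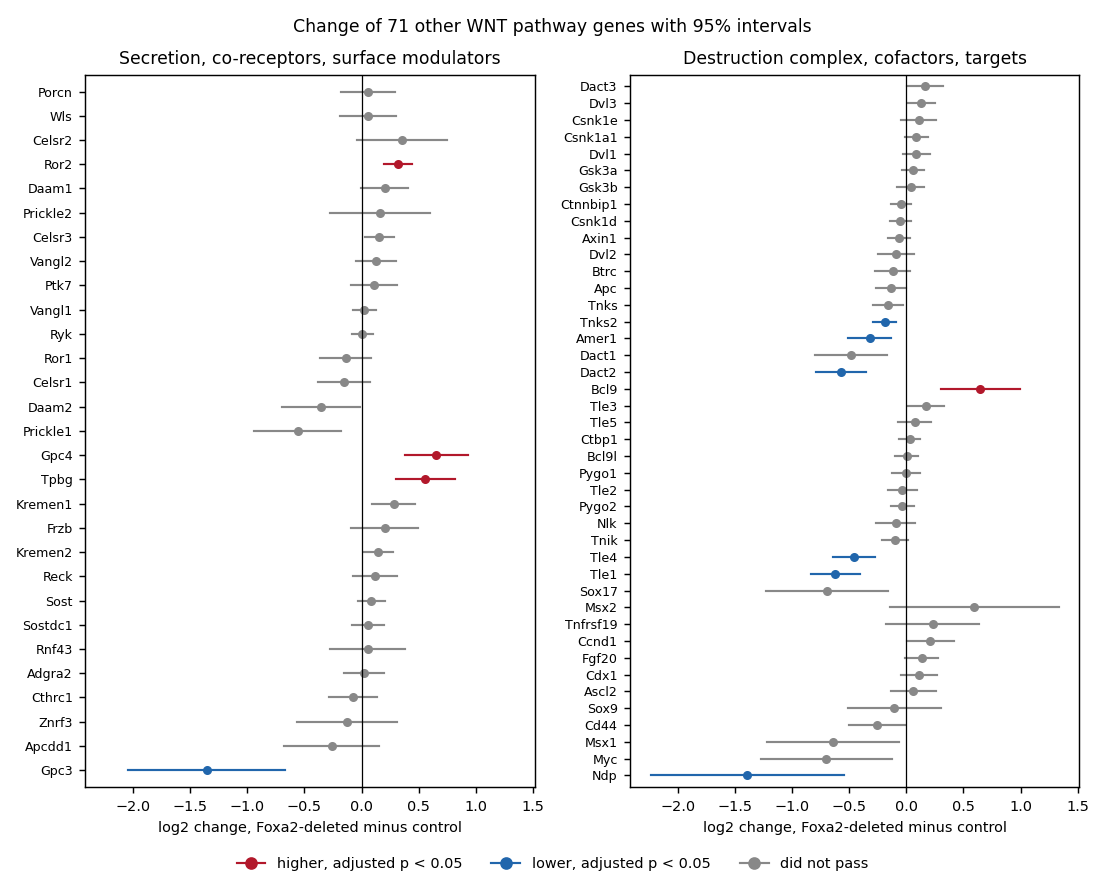
Log2 change (Foxa2-deleted minus control, horizontal axis) of 71 other pathway genes with 95% intervals of the fit, ordered by function and size, with 4 uteri per group. The 4 called increases are Ror2, Gpc4, Tpbg and Bcl9, and Gpc3 and Ndp have the lowest called changes.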

How the data were processed

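RNA of 8 whole mouse uteri, 150 ng each, was amplified and labelled with biotin for Affymetrix whole-transcript arrays, 1 array per uterus, per the labels' protocols. The titles call the replicates biological, so p-values measure the spread between animals. The deposited values are log2 intensities made by the authors with RMA (background correction, normalisation between arrays, probe summary), per the submitters' processing notes, which also name limma; the sources used here give no versions and no genome build. RMA understates changes of dim genes, and no detection calls came with the values.

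Of 35556 probe sets, 21789 had 1 symbol in GEO's platform annotation, 1621 several and 12146 none; only the first kind was used, with the highest mean of the 8 arrays for a gene, giving 19938 genes. The genotypes were compared with lmFit and eBayes in limma 3.58.1 (R 4.3.3), with 1 coefficient for genotype. All adjusted p are limma's, by Benjamini-Hochberg over all genes, and SE is that of the moderated fit. Changes are Foxa2-deleted minus control. The members and lists were chosen with earlier results of these data known. Values by array are given for called members and for 16 members known from the uterus or as pathway readouts; Wnt2b, Fzd3, Fzd10, Dkk4, Sfrp2 and Nkd2 were added after their values were seen. Alternatives were 3 scalings, 2 filters on dim genes, the mean of a gene's probe sets, a variance trend with robust fitting, array weights, the replicate number as a block, and each uterus left out. In a test on simulated data with 19938 genes, 85% of 100 genes changed 1.5-fold, 98% of 50 changed 2-fold and 100% of 50 changed 4-fold were called, with 11 unchanged genes. The simulation gave both groups the same spread. In the data the SD was larger in Foxa2-deleted uteri for 70.3% of all genes and 78.9% of members. The simulated shares are thus no measure of what was missed here.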

Additional observations from a re-analysis of the deposited data

Results flagged for a closer look

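Over the 57 members and both groups, 114 sets of 4 values were checked for a uterus standing far from the other 3 by Dixon's test, which chance flags in about 1 of 20 sets, and 4 were found. Fzd10 had 9.37 in Foxa2-deleted replicate 4, where the next highest deleted uterus had 8.39. Wnt9a had 9.01 in Foxa2-deleted replicate 2, where the next highest had 8.85. In controls, Fzd7 had 9.37 in replicate 3, below the others at 9.55 or more, and Wnt8b had 7.24 in replicate 1, where the next highest had 7.08. None of the 4 genes passed the threshold.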

How the results depend on the processing

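Of the 11 called members, all were called again under repeated quantile normalisation, centring, cyclic loess, the variance trend, the mean of probe sets, array weights, and again after dropping the dimmest 25% of genes. The calls depended strongly on which uteri were used. With 1 uterus left out, the members higher ranged from 0 to 9 and lower from 1 to 7. The other pathway genes higher ranged from 1 to 6 and lower from 2 to 13. All genes higher ranged from 196 to 1374 and lower from 348 to 1777. The genes called numbered 1069, 2947, 1868 and 3059 without Foxa2-deleted replicates 1 to 4 in turn, with 5, 16, 11 and 14 members among them, and 1111, 557, 618 and 556 without control replicates 1 to 4, with 6, 2, 2 and 1 members. With the lower 50% of genes left out, which leaves 30 members, 5 members and 533 genes in all were higher. Wnt7a, Wnt7b, Wnt16 and Notum were among the genes left out there. With array weights 4 members were lower and 1351 genes in all higher. With cyclic loess 4 other pathway genes were lower. Deviations of same-numbered uteri had correlations of -0.05 to 0.06 across genes. The labels do not say whether the numbers pair samples, and these correlations, from 4 uteri per group, cannot settle it. With the replicate number as a block, 3 members were higher, 3 other pathway genes lower, and 435 genes in all higher and 627 lower. The members called were then Axin2, Dkk3, Lgr4, Lgr6 and Wnt4. The calls of Wnt5a, Wnt5b, Wnt7a, Wnt7b, Wnt16 and Notum were lost (adjusted p up to 0.104, limma).

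The 11 called members kept their direction under every alternative that tested them. Small changes turned sign without being called. Under quantile normalisation, centring and cyclic loess Fzd5 was at 0.0225, 0.0175 and 0.0176, Fzd7 at 0.0272, 0.0225 and 0.0429, and Lrp6 at 0.008, 0.02 and 0.0247, and Lrp6 was at 0.0117 with array weights. Wnt2 was at 0.0116 under quantile normalisation and 0.0275 under centring, and Rspo2 at 0.0075 under centring. With 1 uterus left out, Dkk2 ranged from -0.195 to 0.0283, Fzd5 from -0.0533 to 0.05, Fzd7 from -0.0583 to 0.045, Lgr5 from -0.958 to 0.065, Lrp6 from -0.0417 to 0.0183, Rspo2 from -0.0567 to 0.0133, Rspo3 from -0.345 to 0.105, Tcf7l1 from -0.0158 to 0.114, Wnt2 from -0.0408 to 0.0258 and Wnt8a from -0.0242 to 0.0692.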
